A study of Mus musculus with 17 samples.

Results

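*Nat10*, *Thumpd1* and the 8 genes of the snoRNP core proteins were followed across male germ cells that lose *Nat10* before meiosis. The 10 genes were chosen by symbol, as the RNA acetyltransferase, its adaptor, the box C/D core (*Fbl*, *Nop56*, *Nop58*, *Nhp2l1*) and the box H/ACA core (*Dkc1*, *Nop10*, *Nhp2*, *Gar1*), out of 23282 genes listed. All 10 passed the filter on low reads, which 13530 genes passed. C57BL/6 testes were sorted by FACS into 3 stages, named SPG for spermatogonia, PreL for spermatocytes at pre-leptotene and LZ for those at leptotene and zygotene. WT mice were compared with Stra8-cre_Nat10_KO mice (SKO), in which a Cre knocked into *Stra8*, a gene that germ cells switch on as they approach meiosis, acts on a floxed *Nat10* allele opposite a deleted one. Smart-seq2, which copies polyadenylated RNA from an oligo(dT) primer, gave 3 libraries each of WT SPG, SKO SPG, WT PreL and SKO PreL, 2 of WT LZ and 3 of SKO LZ. The ages of the mice were not given in the labels, and the labels did not say whether the libraries of a group came from separate mice, so p-values measure the spread between libraries, which may be technical.

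NAT10 writes N4-acetylcytidine (ac4C) on RNA. THUMPD1 binds RNA through a THUMP domain and serves NAT10 as an adaptor for tRNA, while box C/D snoRNAs guide it to the small-subunit rRNA. Small nucleolar ribonucleoproteins (snoRNPs) are the other guided modifiers of rRNA. In box C/D snoRNPs, fibrillarin (FBL) methylates the 2′-hydroxyl of ribose, NOP56 and NOP58 hold the snoRNA, and NHP2L1, now called SNU13, binds its kink-turn and also that of the U4 spliceosomal RNA. In box H/ACA snoRNPs, dyskerin (DKC1) turns uridine into pseudouridine beside NOP10, NHP2 and GAR1, and the same 4 proteins sit on telomerase RNA.

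The part of *Nat10* that Cre removes is shown first, since it sets what the gene's read count can tell. *Nat10* lies on the minus strand of chromosome 2 (chr2:103721256-103761270, GRCm38), and the coding transcript used here has 29 exons and 3879 bases. Exons 4 (chr2:103754059-103754230) and 5 (chr2:103752580-103752702), as numbered in it and flanked by loxP sites, are coding throughout, hold 295 bases, span coding positions 201 to 495 of 3072, and leave a remainder of 1 base on division by 3. They are printed 5′ to 3′ on the transcript strand:
*Nat10* exon 4: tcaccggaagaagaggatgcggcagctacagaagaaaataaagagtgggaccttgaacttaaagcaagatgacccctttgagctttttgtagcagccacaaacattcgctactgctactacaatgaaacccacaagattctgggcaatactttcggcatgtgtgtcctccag
*Nat10* exon 5: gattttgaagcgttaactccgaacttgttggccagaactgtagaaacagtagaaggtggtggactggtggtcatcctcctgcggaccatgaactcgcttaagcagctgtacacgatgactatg
Both together are 7.61% of that transcript and 4.10% of all exonic bases of the gene, so a per-gene count holds mostly reads from exons that the excised allele keeps. The level of *Nat10* therefore measured the amount of *Nat10* RNA and not the loss of exons 4 and 5, which was not analysed here.

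3 of the core genes carry snoRNAs in their introns. GENCODE placed 5 snoRNAs within *Nop56*, 4 within *Nop58* and 1 within *Dkc1*, none of them over an exon of the main transcript. The 3 that follow are shown as the guides with an assigned name in which both boxes were found, with TGATG, the centre of box C, within the first 20 bases and CTGA, box D, within the last 20 bases in capitals (strand of the host gene, GRCm38):
*Snord110*, in *Nop56*, chr2:130275506-130275573: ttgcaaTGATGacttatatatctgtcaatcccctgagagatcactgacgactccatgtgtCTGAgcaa
*Snord70*, in *Nop58*, chr1:59691934-59692020: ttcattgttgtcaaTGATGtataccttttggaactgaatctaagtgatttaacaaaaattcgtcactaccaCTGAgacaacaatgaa
*Snord11*, in *Nop58*, chr1:59704790-59704873: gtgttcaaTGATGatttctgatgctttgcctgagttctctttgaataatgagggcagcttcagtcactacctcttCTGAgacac
Libraries primed with oligo(dT) do not measure these RNAs, and the values of *Nop56*, *Nop58* and *Dkc1* are those of the polyadenylated host transcripts.

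The libraries held 5812380 to 13820953 recovered reads, with 5812380 to 7609420 in SKO LZ and 9885136 or more in the others. Levels are given as rescaled values, the deposited ERCC-calibrated counts divided by a median-of-ratios size factor set over 11188 genes, so they describe a gene relative to the bulk of the other genes. On the ERCC-calibrated scale without rescaling, the median log2 difference of all genes tested was 0.72 for SKO minus WT in PreL and 1.80 for LZ minus PreL in WT. A passing difference had an adjusted p under 0.05 in limma, with Benjamini-Hochberg adjustment over all 13530 genes. All 7 early meiotic and all 5 differentiating spermatogonia markers were detected in every group, and the early meiotic ones summed to rescaled levels of 46544 to 49783 in WT SPG, 75788 to 86157 in WT PreL and 83945 to 127838 in WT LZ. In SKO they summed to 71404 to 75362 in SPG, 106747 to 173379 in PreL and 97823 to 136348 in LZ. The differentiating ones summed to 14696 to 15896 in WT SPG and 19484 to 22223 in SKO SPG, and to 21564 to 24871 in WT PreL and 14034 to 17834 in SKO PreL. The 7 undifferentiated spermatogonia markers were highest in LZ and not in the sort named for spermatogonia. In WT they summed to 365 to 553 in SPG, 503 to 840 in PreL and 1653 to 2190 in LZ. In SKO they summed to 189 to 389, 427 to 1348 and 1701 to 2260. Markers of other cell types differed between the genotypes. All 5 late spermatocyte markers were detected in WT LZ, with a summed rescaled level of 61624 to 141178, against 4351 to 5343 with 4 of 5 detected in SKO LZ. The 6 spermatid markers summed to 2081 to 20729 over the WT libraries and to 14.0 to 99.5 over the SKO libraries, and *Acrv1* and *Odf1* had 0 reads in SKO LZ. Markers of Leydig cells summed to 124 to 926 in WT and to 853 to 7281 in SKO, and the 6 immediate early genes to 558 to 2159 in WT and to 1684 to 8663 in SKO. In SPG, macrophage markers summed to 53.7 to 208 in WT and 842 to 1574 in SKO, and peritubular myoid markers to 17.5 to 94.9 in WT and 733 to 1434 in SKO. The 5 Sertoli markers differed by stage, and summed to 445 to 661 in WT SPG, 1285 to 1394 in WT PreL and 5761 to 22374 in WT LZ. Their sums in SKO were 852 to 1814 in SPG, 1249 to 16652 in PreL and 10812 to 14200 in LZ. The part of these markers in the results was not tested. In such bulk samples, fewer cells of a type and less RNA per cell cannot be told apart.

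*Nat10* RNA was lower in SKO than in WT in every stage, and some remained. The 3 WT SPG libraries had rescaled levels of 758, 679.9 and 799, and the SKO SPG libraries 318, 438 and 469.7. In PreL, the WT libraries stood at 751, 823 and 542 and the SKO libraries at 316, 284 and 232. In LZ, the WT libraries stood at 546 and 724 and the SKO libraries at 245, 184 and 255. No SKO library reached the lowest WT library of its stage. The mean in SKO was 54.8% of WT in SPG, 39.3% in PreL and 35.9% in LZ. The log2 difference was -0.87 in SPG (SE 0.24, adjusted p = 0.0177), -1.30 in PreL (SE 0.24, adjusted p = 0.000752) and -1.44 in LZ (SE 0.26, adjusted p = 0.00014). On rescaled values the fall did not differ between stages beyond its error, with a difference of -0.44 between PreL and SPG (95% interval -1.13 to 0.26, adjusted p = 0.566) and of -0.13 between LZ and PreL (95% interval -0.87 to 0.61, adjusted p = 0.799). The latter was -1.01 on the ERCC-calibrated scale and passed there (adjusted p = 0.0484), where the median of all genes was -1.12. The SPG difference missed the threshold without WT SPG replicate 3 (-0.82, adjusted p = 0.0676) or without SKO SPG replicate 1 (-0.70, adjusted p = 0.0789), with adjusted p from 0.00535 to 0.0789 over its alternatives. The PreL difference missed it on the ERCC-calibrated scale (-0.59, adjusted p = 0.0789, the highest over its alternatives, the lowest being 3.76e-06). *Nat10* was also the least abundant of the 10 per length, at 104 rescaled units per kb of exon in WT SPG, and in SKO LZ its values rest on 45 to 61 reads per library.

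*Thumpd1*, the adaptor, passed the test in no stage on rescaled values. Its rescaled level was 2236 ± 113 (SD, n = 3) in WT SPG and 2304 ± 457 (n = 3) in SKO SPG. It was 1633 ± 252 (n = 3) in WT PreL and 1779 ± 97.8 (n = 3) in SKO PreL. In LZ the WT libraries stood at 1737 and 1638 and the SKO libraries at 2173, 2138 and 1902, with no overlap. The 95% intervals of the log2 difference ran from -0.29 to 0.34 in SPG, from -0.18 to 0.44 in PreL and from -0.06 to 0.64 in LZ. The LZ difference passed, higher in SKO, with TMM scaling and in edgeR. The PreL difference passed on the ERCC-calibrated scale (0.86, adjusted p = 0.00208), where the median of all genes was 0.72. Of its relatives with a THUMP domain, *Thumpd3*, which acts in tRNA guanosine methylation, was higher in SKO SPG (log2 difference 0.68, SE 0.18, adjusted p = 0.0145). *Thumpd3* was lower in SKO LZ (-1.33, SE 0.20, adjusted p = 1.72e-05), and its PreL difference was 0.03 (adjusted p = 0.924). *Thumpd2* averaged 71.6 reads and passed in no stage on rescaled values, but its PreL difference was 1.82 on the ERCC-calibrated scale (adjusted p = 0.00341). *Prpf31*, a relative of *Nop56* and *Nop58* that binds the U4 particle, was lower in SPG (-0.54, adjusted p = 0.0292) and PreL (-0.76, adjusted p = 0.00253), with -0.37 in LZ (adjusted p = 0.0907). On the ERCC-calibrated scale the PreL difference of *Prpf31* was -0.04 (adjusted p = 0.878) and the SPG difference of *Thumpd3* 0.40 (adjusted p = 0.207), and neither passed. *Fbll1*, the fibrillarin paralog, had 0 to 6 reads per library and was not tested.

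The genotypes were then compared over the whole set in each stage. In SPG, 2 of the 10 genes were lower (*Nat10*, *Nop10*) and 1 was higher (*Nop58*), where 7.24% of all genes tested were lower and 7.75% higher. In PreL, 2 were lower (*Nat10*, *Gar1*), where 10.8% of all genes were, and none was higher (9.16% of all genes), also by limma at an unadjusted p under 0.05 and by edgeR and DESeq2. In LZ, 1 was lower (*Nat10*) and 4 were higher (*Fbl*, *Nop58*, *Dkc1*, *Gar1*), where 29.7% of all genes were lower and 20.6% higher. With TMM scaling the counts were 2 lower and 0 higher in SPG, where *Nop58* missed the threshold, 2 and 0 in PreL and 1 and 5 in LZ. On the ERCC-calibrated scale they were 3 lower and 0 higher in SPG, 0 lower and 6 higher in PreL (*Thumpd1*, *Nop56*, *Nop58*, *Nhp2l1*, *Dkc1* and *Nhp2*) and 1 lower and 4 higher in LZ, beside 675 lower and 7005 higher of all genes in PreL. The median log2 difference of the 10 genes was -0.13 in SPG, -0.06 in PreL and 0.28 in LZ, against 0.00, 0.02 and -0.06 over all genes.

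In the box C/D set, *Fbl*, the methyltransferase, was higher in SKO LZ. The WT LZ libraries had rescaled levels of 2622 and 1867, and the SKO LZ libraries 5005, 4093 and 4346, all above WT. The log2 difference was 1.01 (SE 0.19, adjusted p = 0.000147), and the SKO mean was 199.6% of WT. In PreL the order was the other way round, with 3739, 3801 and 3982 in WT and 2750.4, 3005 and 2864 in SKO, but the log2 difference of -0.42 did not pass (adjusted p = 0.0836) and was 0.31 on the ERCC-calibrated scale. In SPG the groups overlapped (-0.26, adjusted p = 0.319). *Fbl* shared 70.4% of its windows of 50 exonic bases with other annotated sequence, mainly the pseudogene *Gm5812*, so its level depends on how unique mapping treated those reads.

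*Nop58*, one of the snoRNA scaffold pair, was also higher in SKO LZ. The WT LZ libraries had rescaled levels of 4009 and 5693, and the SKO LZ libraries 7951, 8263 and 8964. The libraries did not overlap, with a log2 difference of 0.81 (SE 0.13, adjusted p = 4.83e-05). In PreL, WT (8394 to 8891) and SKO (8009 to 8574) overlapped, with -0.06 (95% interval -0.31 to 0.19, adjusted p = 0.759). In SPG, WT had 6380.0, 7151 and 6682 and SKO 8866, 8731 and 8702, and the difference of 0.38 (SE 0.12) passed narrowly (adjusted p = 0.0377). That SPG call was lost on leaving out any 1 of the 6 SPG libraries (0.34 to 0.42, adjusted p from 0.0524 to 0.114) and on the ERCC-calibrated scale (0.09, adjusted p = 0.749), and over all its alternatives adjusted p ran from 0.00992 to 0.749.

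The other two box C/D genes passed in no stage on rescaled values. *Nop56*, the second scaffold, had log2 differences of 0.17 in SPG, 0.34 in PreL and 0.26 in LZ, with adjusted p of 0.525, 0.159 and 0.254. In PreL its SKO libraries (3323, 3343 and 4363) were all above WT (3096, 2892 and 2686). *Nhp2l1* was the most abundant of the set per kb of annotated exon. Its log2 differences were 0.20, 0.11 and 0.08, with 95% intervals from -0.10 to 0.51, from -0.20 to 0.41 and from -0.26 to 0.41. Both were higher in SKO PreL on the ERCC-calibrated scale, *Nop56* by 1.06 (adjusted p = 0.000179) and *Nhp2l1* by 0.84 (adjusted p = 0.000185), beside the median of 0.72 over all genes. *Nop56* shared 37.6% and *Nhp2l1* 16.5% of their 50-base windows with other sequence. An exon of *Nop56* overlaps *Idh3b* on the other strand, where reads of unstranded libraries cannot be told apart.

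In the box H/ACA set, *Dkc1*, the pseudouridine synthase, had the largest difference of the 10 genes in LZ. The WT LZ libraries had rescaled levels of 1546 and 1706, and the SKO LZ libraries 6813, 5034 and 5834. Every SKO library was well above both WT libraries, and the SKO mean was 362% of WT, with a log2 difference of 1.84 (SE 0.14, adjusted p = 2.73e-09). In SPG and PreL it did not pass, with log2 differences of -0.12 (95% interval -0.38 to 0.14) and -0.05 (95% interval -0.31 to 0.21). Its PreL difference was 0.68 on the ERCC-calibrated scale (adjusted p = 0.00218), beside the median of 0.72. *Dkc1* lies on the X chromosome (chrX:75095854-75109777), and an exon overlaps *Mpp1* on the other strand.

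*Gar1*, the H/ACA protein that acts late in particle maturation, was lower in SKO PreL and higher in SKO LZ. In PreL the WT libraries had rescaled levels of 952, 1193 and 885 and the SKO libraries 637, 654 and 636, with a log2 difference of -0.63 (SE 0.18, adjusted p = 0.0191) that was 0.09 on the ERCC-calibrated scale (adjusted p = 0.733). In LZ the WT libraries had 497 and 659 and the SKO libraries 2086, 1728 and 1563, with a log2 difference of 1.62 (SE 0.20, adjusted p = 1.94e-06). The SKO LZ libraries were the highest of all 17, and no other library passed 1193. The PreL call was lost without WT PreL replicate 2 (-0.51, adjusted p = 0.0975) or SKO PreL replicate 1 (-0.63, adjusted p = 0.0629), with adjusted p from 0.00723 to 0.733 over its alternatives. In SPG the groups overlapped (-0.13, adjusted p = 0.679).

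The partners of *Dkc1* and *Gar1* in the same particle did not share this. *Nop10*, the smallest core protein, was lower in SKO SPG. Its WT SPG libraries had rescaled levels of 3868, 5149.9 and 5262 and its SKO SPG libraries 2491, 2728 and 1914, with no overlap and a log2 difference of -1.0 (SE 0.16, adjusted p = 0.000329). In PreL it had 6148, 5744 and 5508 in WT and 4691, 4952 and 4219 in SKO, but -0.33 did not pass (adjusted p = 0.152). In LZ the groups overlapped, with 6941 and 9935 in WT and 8441, 9694 and 9512 in SKO (0.15, 95% interval -0.22 to 0.52). *Nhp2* had -0.37 in SPG (adjusted p = 0.108), 0.03 in PreL and 0.24 in LZ (95% interval -0.12 to 0.59), and overlapped in each stage. An exon of *Nhp2* overlaps *Rmnd5b* on the other strand.

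The 5 genes that passed in LZ passed on leaving out each LZ library in turn. Without WT LZ replicate 2, *Nop56* and *Nhp2* passed as well (6 higher), in a fit that assumes the remaining WT LZ library varies like the other groups. The late spermatocyte and spermatid markers separate WT LZ from SKO LZ as well, and their part was not tested. These markers also separate the genotypes in PreL, where their part was not tested either. There the late spermatocyte markers summed to 8940 to 23920 in WT and 3125 to 3863 in SKO. The spermatid markers summed to 12830 to 20729 in WT PreL and 60.9 to 99.5 in SKO PreL.

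Promoter windows of the 2 genes with the largest LZ differences are printed here, from 250 bases before to 50 after the RefSeq start (GRCm38.p6, strand of the gene). 9 of the 10 genes had a window. CACGTG (E-box, both strands) was in none of the 9 and in 7.15% of 32851 windows, and CCGGAAGT (ETS type, both strands) was in 2 of 9 and in 3.89% of all windows. Capitals mark the ETS-type match, read on the opposite strand in *Gar1*, from 44 bases before the start.
*Dkc1*, chrX:75095604-75095903: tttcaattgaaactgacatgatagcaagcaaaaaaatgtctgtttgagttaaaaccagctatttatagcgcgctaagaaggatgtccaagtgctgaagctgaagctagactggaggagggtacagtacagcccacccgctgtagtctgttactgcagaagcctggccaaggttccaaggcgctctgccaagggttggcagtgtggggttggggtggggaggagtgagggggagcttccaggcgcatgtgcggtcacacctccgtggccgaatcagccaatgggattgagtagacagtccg
*Gar1*, chr3:129831347-129831646: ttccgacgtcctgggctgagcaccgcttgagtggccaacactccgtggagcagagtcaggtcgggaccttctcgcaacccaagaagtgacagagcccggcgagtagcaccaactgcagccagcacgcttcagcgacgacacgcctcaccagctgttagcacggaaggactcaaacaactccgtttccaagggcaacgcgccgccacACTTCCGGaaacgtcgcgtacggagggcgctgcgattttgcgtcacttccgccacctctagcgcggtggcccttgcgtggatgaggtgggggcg
The second match was in *Nhp2*, from 23 bases before the start. *Dkc1* held neither motif, and a match is a description of the letters only.

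The stages were compared within each genotype to see whether these genes move as cells enter meiosis. From SPG to PreL in WT, 0 of the 10 genes passed in limma (10.6% of all genes passed), 1 was lower and 1 higher at an unadjusted p under 0.05, edgeR called 1 (*Thumpd1*, lower) and DESeq2 called 2 (*Thumpd1* lower, *Nop58* higher). *Thumpd1* had a log2 difference of -0.46 (adjusted p = 0.0535) there. In SKO, *Nop10* was higher in PreL than in SPG (0.97, SE 0.16, adjusted p = 0.0011), where 4.89% of all genes were higher and 3.44% lower. The genotype effects of PreL and SPG differed for 0 of the 10 genes in limma and 0.362% of all genes, with 1 lower and 1 higher at an unadjusted p under 0.05 and 0 by edgeR and DESeq2. By the ERCC-calibrated values 7 were higher, as were 5938 of all genes with 147 lower, and the median of all genes was 0.94.

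From PreL to LZ, *Fbl*, *Dkc1* and *Gar1* moved in opposite directions in the genotypes on rescaled values. *Nop56*, *Nhp2l1*, *Nop10* and *Nhp2* had the same direction in both. In WT, 5 of the 10 genes were lower in LZ relative to the other genes (*Fbl*, *Nop58*, *Nhp2l1*, *Dkc1* and *Gar1*). On the ERCC-calibrated scale all 10 were higher, as were 11693 of all genes with 32 lower. The 5 named had 0.62 to 1.21 there, below the median of all genes of 1.80. On rescaled values *Nop10* was higher (0.52, adjusted p = 0.0225). Of all genes 17.0% were lower and 27.2% higher, and with TMM scaling 6 of the 10 were lower and none higher, beside 3077 lower and 3153 higher of all genes. The log2 differences were -1.06 for *Dkc1* (adjusted p = 1.88e-05), -0.85 for *Nop58* (adjusted p = 8.44e-05), -0.80 for *Gar1* (adjusted p = 0.00379), -0.79 for *Fbl* (adjusted p = 0.00211) and -0.48 for *Nhp2l1* (adjusted p = 0.0214). In SKO, 4 were higher in LZ (*Fbl*, *Dkc1*, *Nop10* and *Gar1*), where 12.9% of all genes were, and 1 was lower (*Nhp2l1*, -0.51, adjusted p = 0.0122, but 0.31 on the ERCC-calibrated scale), where 13.5% were. The differences were 1.46 for *Gar1* (adjusted p = 5.1e-06), 0.99 for *Nop10* (adjusted p = 8.02e-05), 0.83 for *Dkc1* (adjusted p = 4.19e-05) and 0.64 for *Fbl* (adjusted p = 0.00708).

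Some WT calls rested on single libraries. *Fbl* was lost without WT LZ replicate 3 (-0.54, adjusted p = 0.0651) and *Gar1* without WT LZ replicate 2 (-0.60, adjusted p = 0.062). *Nop10* in WT was lost without WT LZ replicate 3 (0.27, adjusted p = 0.321) or WT PreL replicate 4 (0.48, adjusted p = 0.0639), and with TMM scaling (0.34, adjusted p = 0.106). *Nhp2l1* was lost in WT without WT LZ replicate 2 (-0.40, adjusted p = 0.132), WT PreL replicate 1 (-0.39, adjusted p = 0.0798) or WT PreL replicate 4 (-0.44, adjusted p = 0.0626), and in SKO without SKO PreL replicate 3 (-0.36, adjusted p = 0.0951) or SKO LZ replicate 2 (-0.44, adjusted p = 0.0587). Over the alternatives of the WT comparison the highest adjusted p was 0.0651 for *Fbl*, 0.062 for *Gar1*, 0.321 for *Nop10* and 0.132 for *Nhp2l1*, and for *Nhp2l1* in SKO it was 0.0951.

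The genotype effects of LZ and PreL differed for 4 of the 10 genes, each more positive in LZ, where 15.1% of all genes were more positive and 23.1% more negative. The interaction was 2.25 for *Gar1* (SE 0.27, adjusted p = 3.2e-06), 1.89 for *Dkc1* (SE 0.19, adjusted p = 2.07e-07), 1.43 for *Fbl* (SE 0.25, adjusted p = 0.000202) and 0.87 for *Nop58* (SE 0.18, adjusted p = 0.000922), and on the ERCC-calibrated scale, where the median of all genes was -1.12, that of *Nop58* was -0.00031. On that scale 3 genes passed with a more negative effect in LZ (*Nat10* -1.01, *Nop56* -0.95 and *Nhp2l1* -0.90) and 2 with a more positive one (*Dkc1* and *Gar1*). Among the other genes, *Nop10* had 0.48 (95% interval -0.02 to 0.97, adjusted p = 0.119) and *Nhp2l1* -0.03 (95% interval -0.48 to 0.42).

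**Figure D1:**
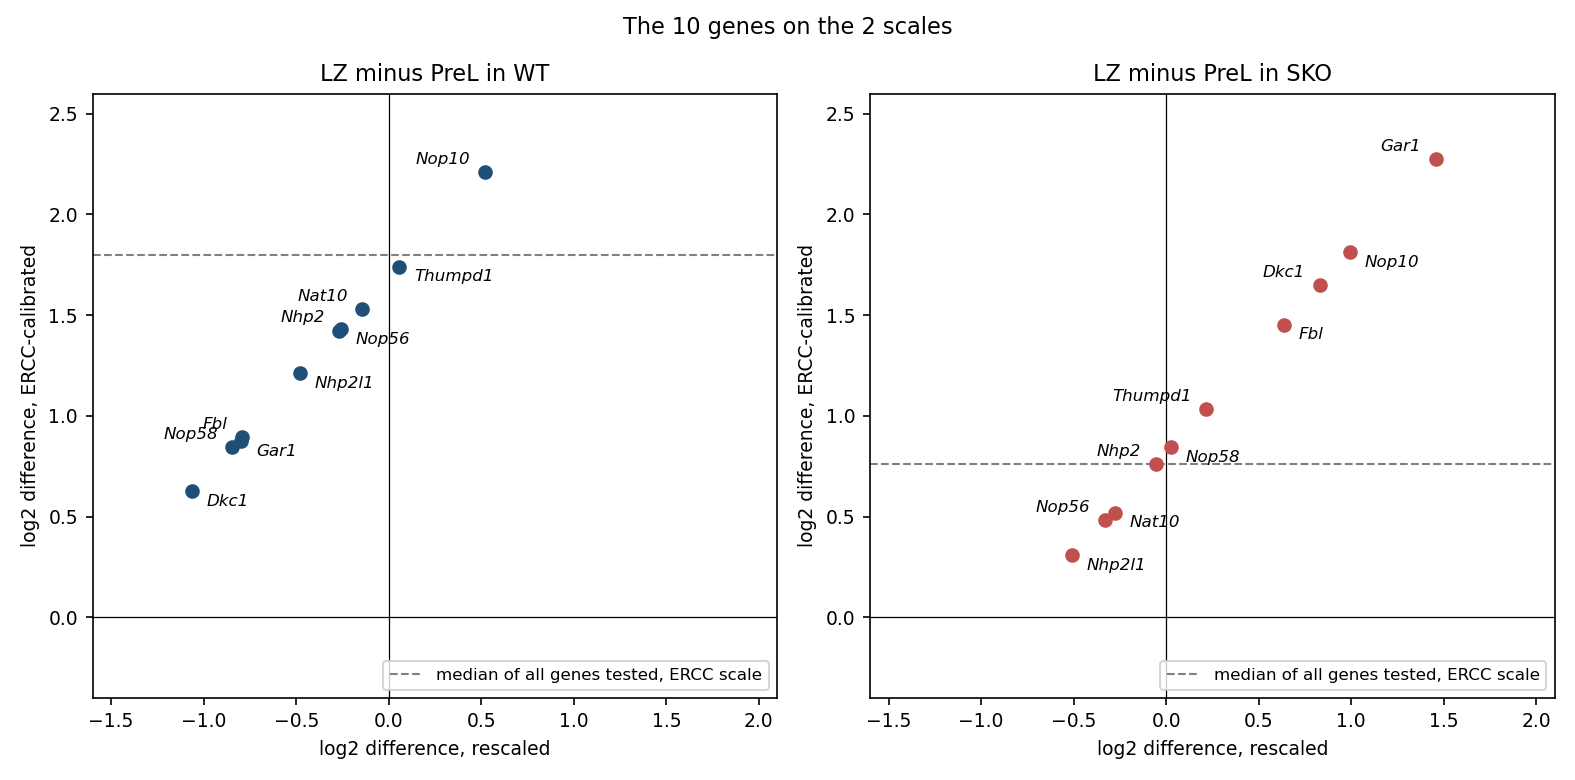
Log2 difference, LZ minus PreL, of the 10 genes in WT (left) and SKO (right), rescaled on the horizontal axis and ERCC-calibrated on the vertical axis, with a dashed line at the ERCC-scale median of all genes (1.80 in WT, 0.76 in SKO). All points lie above 0 on the ERCC-calibrated scale, and in WT only *Nop10* lies above the median.

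The balance of transcripts within each particle does not depend on the scaling of a library and was read as the share of each gene in the summed level per kb of exon of its set of 4. In the box C/D set *Nhp2l1* took the most in every library, 61.8% to 71.0% outside SKO LZ and 56.0% to 59.4% in SKO LZ. *Fbl* took 8.88% to 12.8% in WT LZ and 16.3% to 19.2% in SKO LZ, and *Nop58* 7.63% to 10.6% and 11.9% to 13.4%. In the box H/ACA set *Dkc1* took 3.34% to 3.39% in WT LZ and 8.04% to 11.8% in SKO LZ. Outside LZ its share ran from 7.10% (WT PreL) to 13.9% (SKO SPG), so WT LZ was the group that stood apart. *Gar1* took 2.62% to 3.10% in WT LZ and 6.13% to 8.69% in SKO LZ, and from 3.81% (SKO PreL) to 6.61% (WT PreL) outside LZ. *Nop10* went from 35.7% to 44.1% in WT SPG to 56.6% to 72.3% in WT LZ, and *Nhp2* from 41.1% to 50.7% to 21.2% to 37.4%. Shares per length depend on the annotated exon length, which joined the exons of all transcripts of a gene. It was 10758 bases for *Nop58* and 2924 for *Nhp2l1*, against 1713 and 2077 in their main transcripts. The order of genes within a set therefore depends on the length used. Oligo(dT) priming and amplification also need not cover transcripts evenly.

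Per kb of all annotated exonic bases of a gene, the 10 genes fell into a high and a low set. That length was 10758 bases for *Nop58* and 4209 for *Fbl*, against 1713 and 1197 in their main transcripts. For *Nop10* both lengths were 1109, so the order and the gap depend on the length used. In WT SPG, *Nhp2* had 4826 rescaled units per kb, *Nop10* 4292 and *Nhp2l1* 3884, while *Dkc1*, *Fbl*, *Thumpd1*, *Nop56*, *Nop58* and *Gar1* had 965 down to 472. The same 3 genes led in all 6 groups, and *Nat10* was last in all 6. *Dkc1* was the fourth in SKO LZ (1430.2) and the eighth in WT LZ (395), and *Gar1* the sixth (1046) and the ninth (337). Neighbours such as *Dkc1* and *Fbl* in WT SPG (3793 to 4250.4 and 3064 to 4379 before division by length) differed by less than their spread.

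Further genes of snoRNP biology were counted from lists of general knowledge. Of 13 snoRNP assembly factors, 1 was lower and 0 higher in SKO SPG, 3 and 1 in PreL, and 5 and 4 in LZ, with a median log2 difference of -0.04 in LZ against -0.06 over all genes. Beside this list and those that follow, 7.24% of all genes were lower and 7.75% higher in SPG. These shares were 10.8% and 9.16% in PreL and 29.7% and 20.6% in LZ. On the ERCC-calibrated scale the counts in SKO PreL were 0 lower and 8 higher for the assembly factors, 0 and 6 for 9 snoRNA host genes and 0 and 10 for the base modifiers named further on. Of all 13530 genes, 675 were lower and 7005 higher there. The R2TP parts *Ruvbl2* (3864 ± 1605 in WT LZ, n = 2, and 716 ± 78.1 in SKO LZ, n = 3, SD, log2 difference -2.36, adjusted p = 2.95e-08) and *Pih1d1* (-1.78, adjusted p = 1.28e-05) and the Cajal body protein coilin (*Coil*, -1.50, adjusted p = 3.79e-05) were lower. *Nufip1* (0.91, adjusted p = 0.00106), which brings box C/D proteins to the assembly complex, *Tgs1* (0.73, adjusted p = 0.00135), the cap hypermethylase, and *Nolc1* (0.72, adjusted p = 0.000406), the nucleolar chaperone of snoRNPs, were higher.

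The long noncoding host genes of snoRNAs were mostly higher in SKO LZ. In LZ, 7 of 9 were higher in SKO and 0 lower (also 0 by edgeR), where 20.6% of all genes were higher and 29.7% lower. The median log2 difference was 1.41 against -0.06 over all genes, and 7 were higher on the ERCC-calibrated scale as well. *Snhg9* had 457 ± 71.1 in WT LZ (n = 2) and 4042 ± 920.1 in SKO LZ (n = 3, SD), with a log2 difference of 3.10 (adjusted p = 6.55e-09). *Snhg1* had 2.35 (adjusted p = 5.77e-09) and *Snhg6* 1.77 (adjusted p = 4.78e-08). In PreL, 2 were higher and 0 lower, and in SPG 2 were lower and 2 higher. The same 2 genes were higher in SPG and PreL, and both were also higher in LZ. *Snhg1* was 1 of them, with 1.46 in SPG (adjusted p = 1.78e-05) and 0.97 in PreL (adjusted p = 0.000528). The levels of these spliced RNAs do not measure the snoRNAs within the introns.

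Of 36 genes of the small subunit processome, which carries the U3 box C/D snoRNP, 2 were lower and 2 higher in SPG, 6 and 0 in PreL, and 6 and 10 in LZ, with medians of -0.06, -0.12 and 0.14. The LZ counts stand beside 29.7% lower and 20.6% higher of all genes. On the ERCC-calibrated scale 0 were lower and 23 higher in PreL, and 7 lower and 4 higher in LZ. Of all genes, 675 were lower and 7005 higher in PreL on that scale, and 4329 lower and 2151 higher in LZ. In LZ, *Utp6* (837 ± 65.3 in WT, n = 2, and 3378 ± 633 in SKO, n = 3, SD, log2 difference 1.99, adjusted p = 6.95e-08), *Pdcd11* (1.26, adjusted p = 1.73e-05) and *Wdr3* (1.0, adjusted p = 9.36e-05) were higher, and *Rrp7a* (-1.67, adjusted p = 0.00097), *Aatf* (-1.29, adjusted p = 1.44e-05) and *Tbl3* (-0.85, adjusted p = 0.000313) were lower. Of the 20 measured pseudouridine synthases that work without a guide and rRNA base modifiers, 1 was lower in SPG, 1 higher in PreL, and 4 lower and 3 higher in LZ, with a median of -0.25 in LZ. In LZ 6 were lower and 2 higher on the ERCC-calibrated scale. *Trub1*, a tRNA pseudouridine synthase, had the largest difference of the list, from 601 ± 9.57 in WT LZ (n = 2) to 6567 ± 1913 in SKO LZ (n = 3, SD), with a log2 difference of 3.39 (adjusted p = 3.75e-10). *Rrp8* (0.89, adjusted p = 0.00266) and *Rpusd4* (0.67, adjusted p = 0.0312) were higher too, though *Rpusd4* had 0.54 on the ERCC-calibrated scale (adjusted p = 0.127), and *Trmt112* (-0.99, adjusted p = 1.28e-05), the activator of several methyltransferases, and *Wbscr22* (-0.93, adjusted p = 0.0324), an rRNA guanine methyltransferase that it serves, were lower.

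The genes whose pattern was most like that of *Nat10* over the 17 libraries, by Pearson correlation of log2(rescaled value + 10), were *Prdx5* (r = 0.915), *Rnf10* (r = 0.911), *Klhl10* (r = 0.895), *Tmem111* (r = 0.893) and *Snrnp25* (r = 0.892). Those most like the mean of the 8 snoRNP core genes were *Tnrc6a* (r = 0.968), *Hdgfrp3* (r = 0.965), *Aoc2* (r = 0.963), *9530052E02Rik* (r = 0.96) and *AI506816* (r = 0.957). The 8 genes did not share 1 pattern, with r between pairs from -0.515 (*Nhp2l1* and *Nop10*) to 0.8 (*Fbl* and *Dkc1*). The points share stages, genotypes and depth, so r describes these libraries only.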

How the data were processed

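Per the study's methods, reads were trimmed and mapped to mm10, HTSeq gave the unique reads of a gene, and 1 spike-in factor per library, set from ERCC RNA and cell input, scaled them. The signal values the authors deposited are these ERCC-calibrated counts. The submitters' processing notes name TopHat2 2.1.1, HTSeq 0.11.2, Cufflinks 2.2.1 and DESeq2, and the builds mm9 and mm10. Each value was a whole multiple of its library's value of 1 read (100% within 0.001), which gave the recovered reads.

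Division by a joint median-of-ratios factor per library gave the rescaled values. Genes averaging 10 or more reads entered, and log2(value + 10) was fitted with limma 3.58.1 (R 4.3.3, trend) over all 17 libraries. A difference on this scale understates the change of low genes. Alternatives included edgeR 4.0.16 and DESeq2 1.42.0 on the recovered reads. The members and lists were chosen with earlier results of these data known. The genes named are all members and the THUMP and core paralogs, and from each other list up to 3 in each direction in LZ that passed, averaged at least 100 reads and did not overlap, with the 5 genes most alike in pattern. *Tsr3*, on 1 list, was not measured here. Symbols were matched to GENCODE M21 (GRCm38), 20857 directly, 1940 by synonym and 485 not. The fit was also run on simulated counts in which few genes differed between groups, unlike LZ here, and no result rests on it.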

Additional observations from a re-analysis of the deposited data

Results flagged for a closer look

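The genotype effect differed between LZ and PreL for 4 of the 10 genes, by the interaction term of the limma fit over all 17 libraries. It was 1.43 for *Fbl* (adjusted p = 0.000202), 0.87 for *Nop58* (adjusted p = 0.000922), 1.89 for *Dkc1* (adjusted p = 2.07e-07) and 2.25 for *Gar1* (adjusted p = 3.2e-06). On the ERCC-calibrated scale, where all genes had a median interaction of -1.12, it was 0.56 for *Fbl* (adjusted p = 0.11), -0.00031 for *Nop58*, 1.02 for *Dkc1* and 1.40 for *Gar1*. Over the alternatives adjusted p reached 0.11 for *Fbl*, 0.999 for *Nop58*, 0.00166 for *Dkc1* and 0.00114 for *Gar1*. With 1 library left out, 4 or 5 genes passed each time, and the interaction ran from 1.17 to 1.67 for *Fbl*, 0.61 to 1.11 for *Nop58*, 1.78 to 2.0 for *Dkc1* and 2.05 to 2.44 for *Gar1*.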

How the results depend on the processing

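The ERCC-calibrated values without rescaling moved the most counts of passing genes, to 6 for SKO against WT in PreL, 10 for LZ against PreL in WT, 9 for PreL against SPG in SKO, 8 for LZ against PreL in SKO and 7 for the difference of the genotype effects of PreL and SPG. All of these were higher. In the same order, 7005, 11693, 8825, 6595 and 5938 of all 13530 genes were higher, and 675, 32, 28, 273 and 147 were lower. They turned the direction of 8 differences, which became 0.089 for *Gar1* in PreL, 0.89 for *Fbl*, 0.84 for *Nop58*, 1.21 for *Nhp2l1*, 0.62 for *Dkc1* and 0.87 for *Gar1* from PreL to LZ in WT, 0.31 for *Nhp2l1* from PreL to LZ in SKO, and -0.00031 for the interaction of *Nop58*. With the study's threshold of an absolute log2 difference above 1 as well, 1 gene passed in SPG, 1 in PreL, 1 from PreL to LZ in WT, 1 in SKO and 0 from SPG to PreL in SKO. From SPG to PreL in WT, where 0 passed, 1 passed with TMM, edgeR or a mean of at least 50 reads, and 2 with DESeq2. With a library left out, the counts ranged from 1 to 4 in SPG, 1 to 2 in PreL and 0 to 2 from SPG to PreL in WT. Pseudocounts of 1 and 50, no filter and separate fits moved no count past 1.5 times. Of the 26 passing differences, 411 values under the alternatives kept direction and threshold, 30 kept direction only and 8 reversed. The main fit did not pair libraries by number. Libraries with the same number had deviations correlated from -0.188 to 0.422. Libraries with different numbers were not compared, so these values cannot tell whether the numbers pair them. The replicate block gave counts of 2 in SPG, 3 in PreL, 5 in LZ and 1 from SPG to PreL in WT. SKO LZ had the fewest reads, which limits *Nat10* there to 45 reads in 1 library.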
